A study of Glycine max with 12 samples.

Results

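Seed coats of soybean (Glycine max) lines with an intact, standard coat were compared between a late stage, in which the whole seeds weighed 400–500 mg, and an early stage of 50–100 mg. Of the 12 RNA-Seq libraries of the series, 4 hold these seed coats. They are Clark standard (CS) early and late and Harosoy standard (HS) early and late, with 1 library for each line and stage. CS is self-black and carries the alleles i R T, HS is yellow and carries I r t, and neither has the defective coat trait that the series was made to study. Seeds of greenhouse plants were pooled and sorted by fresh weight, and the coats were dissected and lyophilized. The 2 lines are the only repeats of a stage. The p-values of the fit to all 4 libraries measure how far the 2 lines differ in their late to early ratio. They borrow variance from all models tested, and they do not measure the spread between the libraries of a stage. Age of the seed, harvest and library cannot be told apart within a line. Levels are RPKM values, the hits on a gene model divided by its length in kilobases and scaled to the total of the library. All 78773 Glyma models were considered, of which 12779 were at 0 in all 4 libraries and 41625 had at least 1 RPKM in at least 2 of the 4 libraries and were tested.

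The seed coat is maternal tissue that encloses the embryo, feeds it while it fills, and becomes the hard protective layer of the dry seed. Its outer cells first divide and expand, which calls for wall loosening by expansins and pectin enzymes, and later lay down thick walls. Proline-rich proteins (PRP), glycine-rich proteins (GRP) and extensins are structural proteins that are built into plant cell walls, and in soybean the PRP genes are known for switching on and off in turn as the coat matures.

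The 4 libraries held 74.2 to 83.7 M hits, and 5 RPKM on a model of median length stood for 434 to 490 hits. In every library 37685 to 40437 models had at least 1 RPKM. All 4 were read on the HiSeq platform. Pigmented CS coats were extracted with a modified protocol, so line and extraction cannot be told apart, and a larger dry weight was extracted at the late stage in both lines. Alignment kept as many as 25 places for a read, so that hits are shared by splice models and close paralogs. Hits are placements of reads, and in each of these libraries they outnumber the raw reads that the study lists. The standard seed coat genes PRP1 and PRP2 were measured in all 4 libraries with a summed level of 12914 RPKM in CS and 8724 RPKM in HS early and of 4624 and 3251 RPKM late. In bulk tissue fewer cells of a type and less RNA per cell cannot be told apart.

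The late coats differed from the early ones over much of the transcriptome, and in the same direction in both lines. By limma with the line as a block, at a Benjamini-Hochberg adjusted p under 0.05, 7600 models were higher late, which is 18.3% of the 41625 tested, and 9059 were lower, which is 21.8%. The gene groups below were drawn from annotated models, of which more were called. Of the 1908 annotated models tested 32.9% were higher and 35.9% lower, and the counts of the groups are to be read against these shares as well. The log2 ratios of late to early, computed on RPKM + 1, had a median of 0.00 over all models tested and a median standard error of 0.13. Across these models the ratios of CS and HS had a Pearson correlation of 0.90 and 84.1% had the same sign, a description across genes, which are not independent replicates. The early libraries of CS and HS were closer to each other (r = 0.973) than the late ones (r = 0.943), and early and late libraries of a line were further apart (r = 0.737 in CS and 0.770 in HS). With an early library left out the spread was that between the late libraries, and the calls fell to 524 higher and 2856 lower without the early CS library and to 555 and 2928 without the early HS library. Calls stayed at 6108 and 8162 without the late CS library and at 6506 and 7176 without the late HS library. The lone library of a stage is assumed in these fits to vary like the other stage. Under none of the alternatives tried was a called model called in the opposite direction.

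Folds of at least 2 with at least 5 RPKM were reached in both lines by 2366 models in the higher direction, 5.68% of the 41625, and by 2917 in the lower direction, 7.01%. They lie on 1865 and 2408 loci. The limma test was also passed by 2341 of the former and all 2917 of the latter. Losses went further than gains, since 771 models were at least 10-fold lower late in both lines and 227 at least 10-fold higher. At 100-fold these numbers were 193 and 36. Of the models that passed in both lines, 5283 moved the same way and 9 moved in opposite ways. The share of all RPKM taken by the 10 highest models of a library went from 12.45% to 7.33% in CS and from 9.24% to 4.55% in HS.

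**Figure D1:**
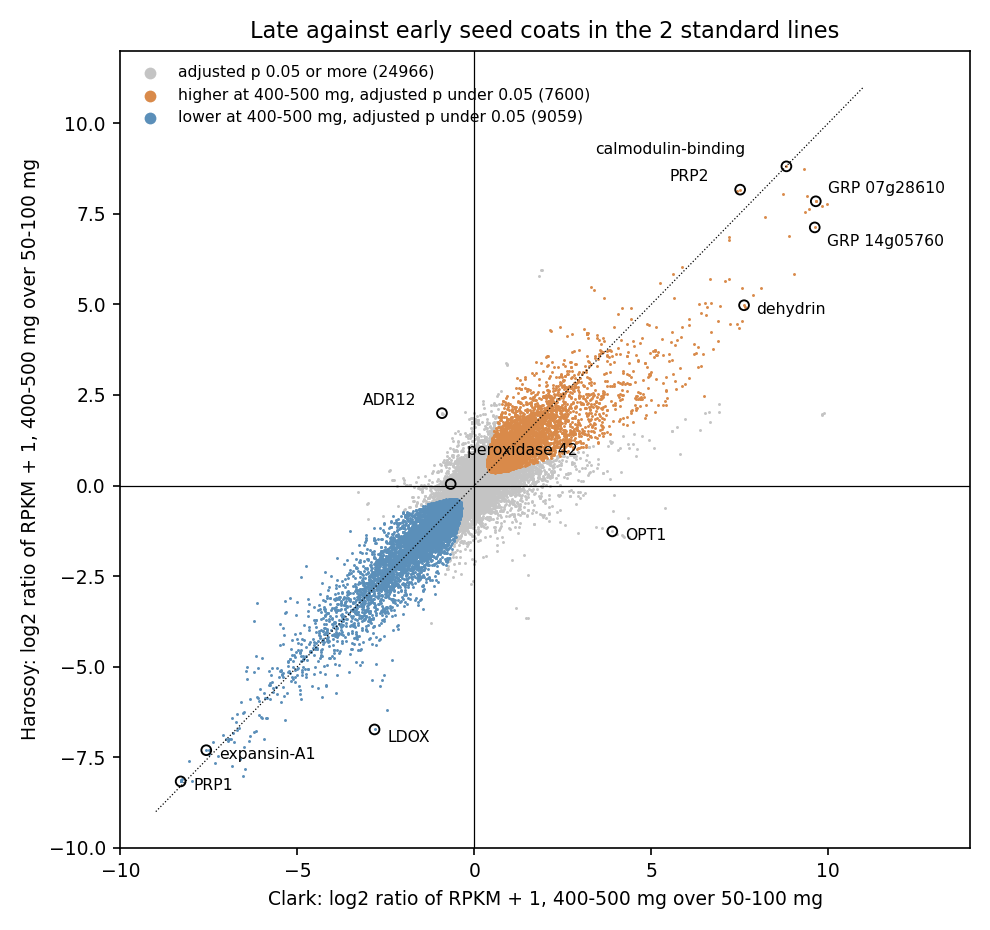
Each point is 1 of the 41625 models tested, placed by its log2 ratio of RPKM + 1, late over early, in Clark (horizontal axis) and in Harosoy (vertical axis), with 1 library per line and stage. Orange marks the 7600 models higher late and blue the 9059 lower late at an adjusted p under 0.05, grey the rest, and rings mark models named in the text. The cloud follows the dotted line of equal ratios, and PRP1 lies near the lower left end in both lines.

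PRP1 (Glyma09g12200.1) was the highest model of the early coats and far lower in the late ones. Its level was 12890 RPKM in early CS and 8714 RPKM in early HS, against 39.9 RPKM in late CS and 29.3 RPKM in late HS. The early libraries lay far above the late ones with no overlap. It was 323-fold lower late in CS and 297-fold lower in HS, a fitted log2 ratio of -8.23 ± 0.33 (SE; limma, Benjamini-Hochberg adjusted p = 0.0026). PRP2 (Glyma09g12260.1), also on chromosome 9, went the other way, from 24.1 RPKM in early CS and 10.22 RPKM in early HS to 4584 RPKM in late CS and 3221 RPKM in late HS. It was 190-fold higher late in CS and 315-fold higher in HS (log2 ratio 7.84 ± 0.27, adjusted p = 0.0022). Both late libraries lay far above both early ones. A further proline-rich model between them, Glyma09g12250.1, rose from 15.3 and 6.22 RPKM to 2771 and 2014 RPKM in CS and HS, and its hits may in part be those of PRP2. On chromosome 15 the proline-rich Glyma15g23830.1 rose 204-fold in CS and 175-fold in HS. All these calls held without any 1 of the 4 libraries.

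Among the annotated members of the proline-rich protein and extensin group, 20 of 21 were tested, 4 rose and 14 fell, with a median log2 ratio of -2.03. The group names come from annotations of models that the study found to differ between standard and defective isolines, so these groups are not whole gene families. Over all 1908 annotated models tested the median was 0.28. The fall reached beyond PRP1. PROLINE-RICH PROTEIN 4 (Glyma04g00710.1), an example chosen after its values were seen, stood at 192 RPKM in early CS and 137 RPKM in early HS and at 1.90 and 1.83 RPKM late, a log2 ratio of -5.83 (adjusted p = 0.0021). The hydroproline-rich Glyma11g21610.1 fell from 4161 to 263 RPKM in CS and from 2244 to 94.9 RPKM in HS, and it shares its surroundings and perhaps hits with Glyma11g21620.1. Its call was lost without the early CS library (adjusted p = 0.10) and without the early HS library (adjusted p = 0.075). The falls in the group numbered 5 without the early CS library and 8 without the early HS library.

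Glycine-rich proteins were among the highest genes of the late coats. Glyma07g28610.1 stood at 8.47 RPKM in early CS and 12.1 RPKM in early HS, and at 7605 RPKM in late CS and 3014 RPKM in late HS. It was 898-fold higher late in CS and 249-fold higher in HS (log2 ratio 8.75 ± 0.50, adjusted p = 0.0033), with the late libraries far above the early ones. Glyma02g42630.1 rose from 5.35 and 8.73 RPKM to 6358 and 2127 RPKM, in CS and HS, and Glycine-rich protein 1 (Glyma20g01430.1) from 2.23 and 1.81 RPKM to 2165 and 717 RPKM. Sequence shared among these paralogs may share hits between them. The increase of Glyma14g05760.1, from 4.18 to 4075 RPKM in CS and from 3.796 to 668 RPKM in HS, passed the test (adjusted p = 0.0048) but not without the early CS or the early HS library (adjusted p = 0.054 in each). Of 12 members, all tested, 5 rose and 4 fell. Those that fell include Glyma13g31840.1, which went from 318 to 9.40 RPKM in CS and from 200.4 to 7.35 RPKM in HS. The group therefore held some of the largest gains beside losses, and its median of 0.86 describes neither. Without the early CS library 3 members rose and 3 fell, as many as without the early HS library.

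Several genes with a known or predicted part in defence or signalling reached comparable late levels. The calmodulin-binding protein Glyma06g15410.1 stood at 9.05 RPKM in early CS, 4.83 RPKM in early HS, 4540 RPKM in late CS and 2614 RPKM in late HS. The late libraries stood far above the early ones, by 502-fold in CS and 541-fold in HS (log2 ratio 8.81 ± 0.18, adjusted p = 0.0020). Endochitinase Glyma02g04820.1, an enzyme that cleaves the chitin of fungal walls, went from 2.17 to 2214 RPKM in CS and from 3.99 to 992 RPKM in HS. The defensin-like Glyma05g33200.1, of a family of small antimicrobial peptides, went from 19.1 to 1173 RPKM in CS and from 14.9 to 1030 RPKM in HS, a rise of 61.6-fold and 69.1-fold. For each of these genes both late libraries lay above both early ones, and each call held without any 1 library. The models Glyma05g38110.1 and Glyma15g25060.1, to which no annotation was paired, belong to the largest gains too, with log2 ratios of 9.03 and 7.82.

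**Figure D2:**
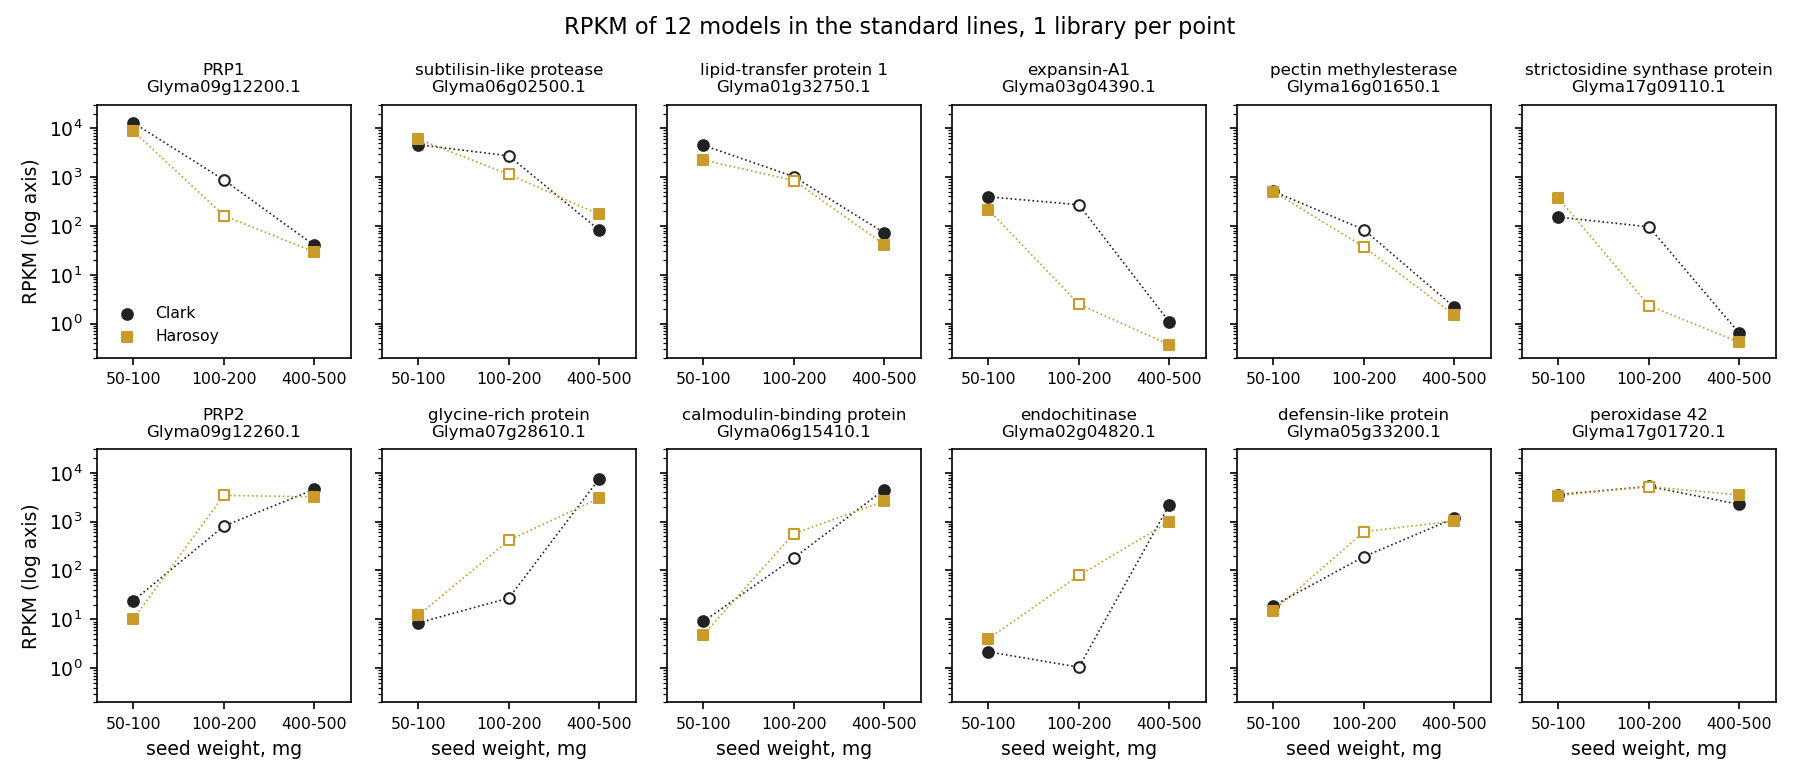
RPKM on a log axis against seed weight in mg for 12 models, Clark as black circles and Harosoy as yellow squares, 1 library per point, with open symbols for the 100–200 mg libraries, which were read on another sequencing platform. Late values of PRP1 lie at 39.9 and 29.3 RPKM below early values of 12890 and 8714 RPKM, PRP2 and the glycine-rich protein run the other way, and peroxidase 42 stays at or above 2252 RPKM throughout.

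Peroxidase 42 (Glyma17g01720.1) stayed high in all 4 libraries. Its values were 3578 RPKM in early CS, 3413 RPKM in early HS, 2252 RPKM in late CS and 3514 RPKM in late HS. The stages overlapped, and no difference was detected (log2 ratio -0.31 ± 0.82, adjusted p = 0.78). It was 1 of 2 models above 1000 RPKM in all 4 libraries. Of 20 models above 1000 RPKM in both early libraries, 16 fell, and of 19 above that level in both late libraries, 9 rose. These counts include splice models, of which PRP1 alone has several. The early group held, besides PRP1, the subtilisin-like protease Glyma06g02500.1, a serine protease of a family secreted to the wall, at 4602 RPKM in CS and 5958 RPKM in HS early and at 81.7 and 171 RPKM late (adjusted p = 0.0046). Non-specific lipid-transfer protein 1 (Glyma01g32750.1), of a family of small secreted proteins that bind lipids, went from 4468 to 71.9 RPKM in CS and from 2237 to 41.6 RPKM in HS (adjusted p = 0.0029).

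Genes of wall loosening and pectin modification were among the steepest losses. Expansin-A1 (Glyma03g04390.1), which loosens growing walls, went from 395 to 1.08 RPKM in CS and from 215 to 0.369 RPKM in HS, a log2 ratio of -7.44 ± 0.13 (adjusted p = 0.0020). Of 13 expansin members tested 8 fell and 1 rose, with a median of -2.29. The member that rose was Expansin-A15 (Glyma06g20970.1), with 16.4 and 12.6 RPKM early and 29.2 and 32.1 RPKM late, and its call was lost without the early CS or the early HS library (adjusted p = 0.077 and 0.13). The falls among expansins numbered 5 without the early CS library and 5 without the early HS library, and 2 members rose without the late HS library.

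Pectin methylesterase Glyma16g01650.1, which removes methyl groups from pectin, stood at 510 RPKM in early CS, 501 RPKM in early HS, 2.16 RPKM in late CS and 1.498 RPKM in late HS. It was 236-fold and 334-fold lower late (log2 ratio -7.49 ± 0.14, adjusted p = 0.0020). Another, Glyma07g05150.1, was 261-fold lower in CS and 362-fold lower in HS. A putative pectinesterase-2 precursor, Glyma19g22790.1, went the other way, with 0.0842 and 0.222 RPKM early and 40.5 and 57.3 RPKM late (adjusted p = 0.0021). Of the 36 pectin enzymes and inhibitors tested, out of 39 members, 21 fell and 9 rose, with a median of -1.56. Without the early CS library 13 fell and 5 rose, the same counts as without the early HS library. Xyloglucan enzymes, which cut and rejoin the chains that tie cellulose together, were split, with 7 members higher, 9 lower and 19 of 35 not called, and a median of 0.16. Their XTR6 members on chromosomes 13 and 17 gave 4 of the rises, such as Glyma17g07260.1 with 51.8 to 249 RPKM in CS and 44.1 to 95.5 RPKM in HS, a call lost without the early CS or the early HS library (adjusted p = 0.24 and 0.28). Rises numbered 0 without the early CS library, 1 without the early HS library and 13 without the late HS library, and falls numbered 3 and 4 without the former 2.

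The catalytic subunits of the cellulose synthase group did not all move the same way. Of 9 catalytic subunit models tested 7 fell and 2 rose. Glyma09g05630.1 went from 102 to 11.1 RPKM in CS and from 93.0 to 12.8 RPKM in HS (log2 ratio -2.93 ± 0.14, adjusted p = 0.0030), while Glyma01g01780.1 went from 6.67 to 16.6 RPKM in CS and from 6.90 to 18.2 RPKM in HS (log2 ratio 1.24 ± 0.11, adjusted p = 0.0060). With the cellulose synthase-like proteins, 5 members of the group rose and 7 fell of 12 tested. No member rose without the early CS or the early HS library, 2 rose without the late HS library, while 5 members fell without either early library.

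Fasciclin-like and arabinogalactan proteins, glycoproteins of the cell surface and wall, fell in nearly all models. Of 23 members, all tested, 20 fell and 1 rose, with a median of -2.84. That is 87.0% of the members, against 35.9% of the annotated models and 21.8% of all models tested. Fasciclin-like arabinogalactan 7 (Glyma02g47790.1) stood at 633 RPKM in both early libraries, at 46.9 RPKM in late CS and at 42.04 RPKM in late HS (log2 ratio -3.80 ± 0.19, adjusted p = 0.0030), and its paralog Glyma14g00830.1, which may share its hits, moved alike. AGP18 (Glyma17g17970.1) went from 59.1 to 0.708 RPKM in CS and from 67.7 to 0.768 RPKM in HS. Early and late values of these genes did not overlap. Without either early library 16 members fell. The rise of Arabinogalactan peptide 22 (Glyma07g09600.1), from 14.9 to 62.2 RPKM in CS and from 8.57 to 22.8 RPKM in HS, was lost without the early CS, the early HS or the late CS library (adjusted p = 0.20, 0.34 and 0.072). Few laccases and peroxidases were called, with 1 member higher, 3 lower and 11 of 15 tested not called, and a median of -0.61. None was called without either early library, 4 rose without the late CS library, and 2 rose and 5 fell without the late HS library. Phenylpropanoid and lignin enzymes gave 6 falls and 1 rise among 10 members, 5 of the falls being caffeic acid O-methyltransferases, and no member was called without either early library.

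**Figure D3:**
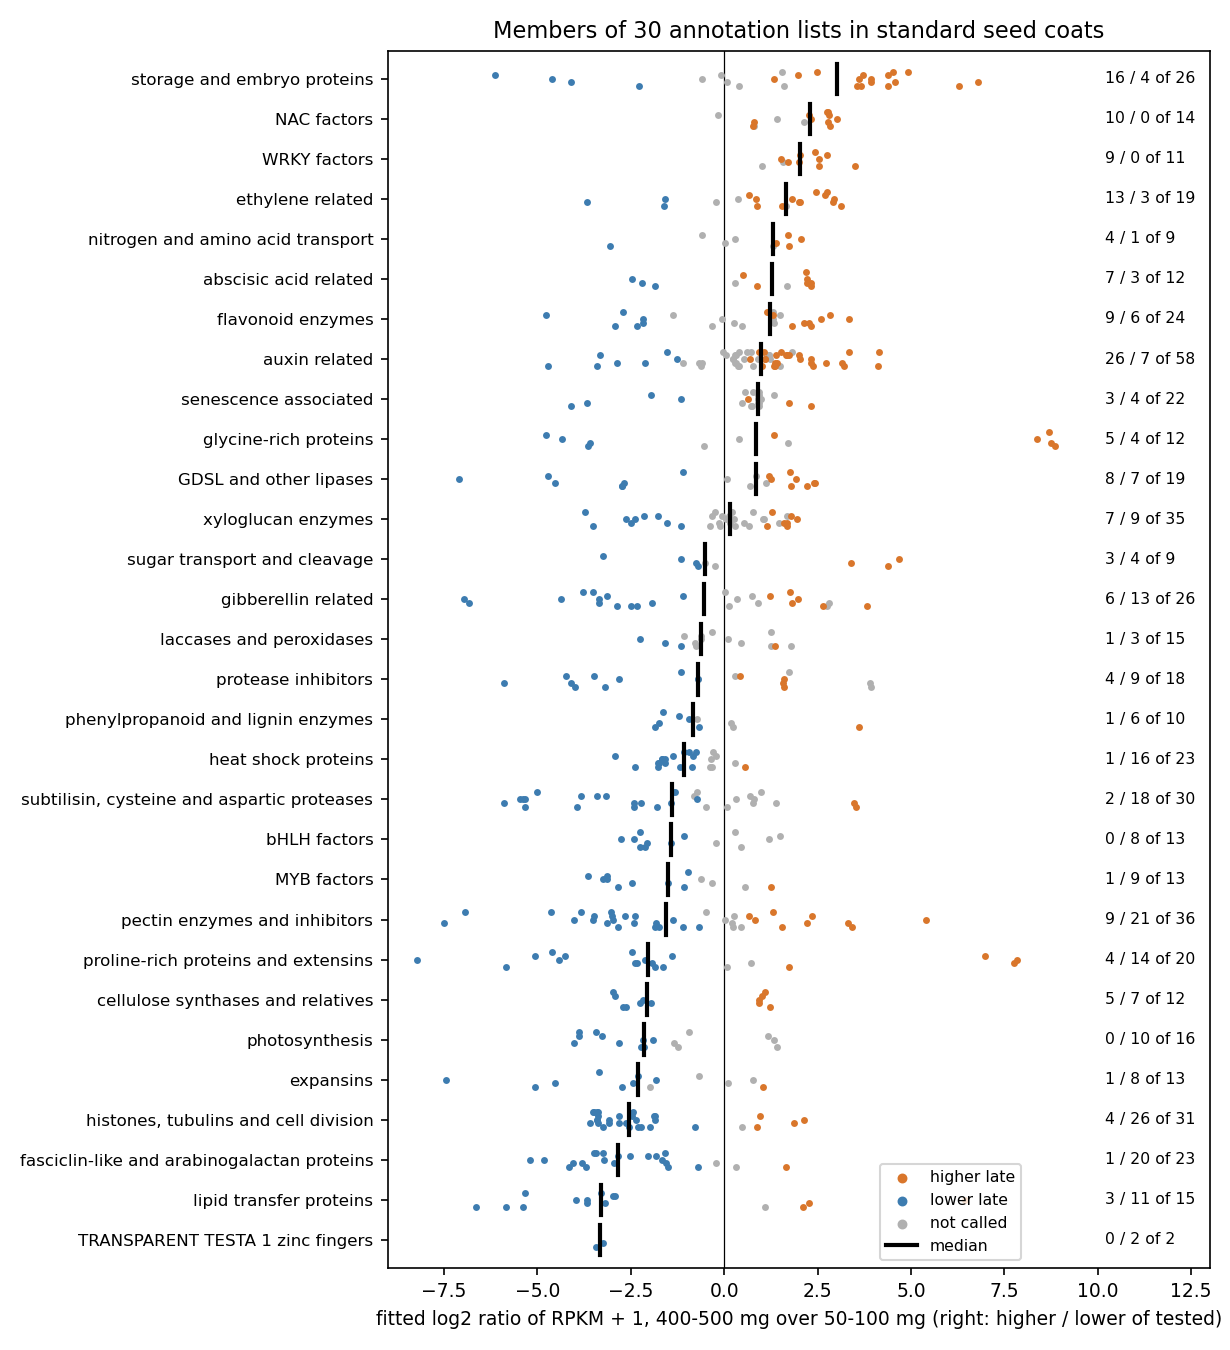
Members of 30 annotation groups by their fitted log2 ratio of RPKM + 1, late over early, with orange for higher, blue for lower and grey for not called at an adjusted p under 0.05, a black bar for the median, and the numbers higher, lower and tested at the right. Groups are ordered by median, from 3.02 for storage and embryo proteins down to -3.33 for the 2 TRANSPARENT TESTA 1 models.

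Genes of dividing and of green tissue fell together. Tubulins, the subunits of microtubules, fell in 8 of 8 models, histones, which package newly made DNA, in 10 of 11, and the whole group of histones, tubulins and division genes in 26 of 31 with 4 rises. Tubulin alpha-1 chain (Glyma06g09500.1) stood at 238 RPKM in early CS, 267 RPKM in early HS, 22.4 RPKM in late CS and 37.6 RPKM in late HS (log2 ratio -3.07 ± 0.20, adjusted p = 0.0039). Cyclin d3 (Glyma10g40990.1), a regulator of entry into division that was chosen as an example after its values were seen, went from 14.02 to 0.519 RPKM in CS and from 15.2 to 0.412 RPKM in HS. The falls of the group numbered 23 without the early CS library and 22 without the early HS library, and the rises 0 and 3. As a marker list of dividing cells, 26 models summed to 1346 and 1428 RPKM early and to 249 and 301 RPKM late in CS and HS, with none at 0.

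In the photosynthesis group 10 of 16 members fell and none rose, with a median of -2.15. A ribulose bisphosphate carboxylase small chain (Glyma19g06370.1), of the enzyme that fixes carbon dioxide, went from 440 to 22.8 RPKM in CS and from 248 to 20.04 RPKM in HS (adjusted p = 0.0033). The early libraries were high and the late ones low in both lines. Glyma19g06340.1 fell alike and may share hits with it. Of the 6 group members whose annotation names ribulose, 3 fell and 3 were not called. The 3 models of photosystem II protein D1, a reaction centre protein, were not called, and they stood at 16.7 to 23.6 RPKM in late CS against 3.36 to 4.45 RPKM in late HS. The falls numbered 3 without either early library, and without the late HS library 3 members rose. The 13 marker models of photosynthetic cells summed to 1305 and 824 RPKM early and to 178 and 80.2 RPKM late.

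**Figure D4:**
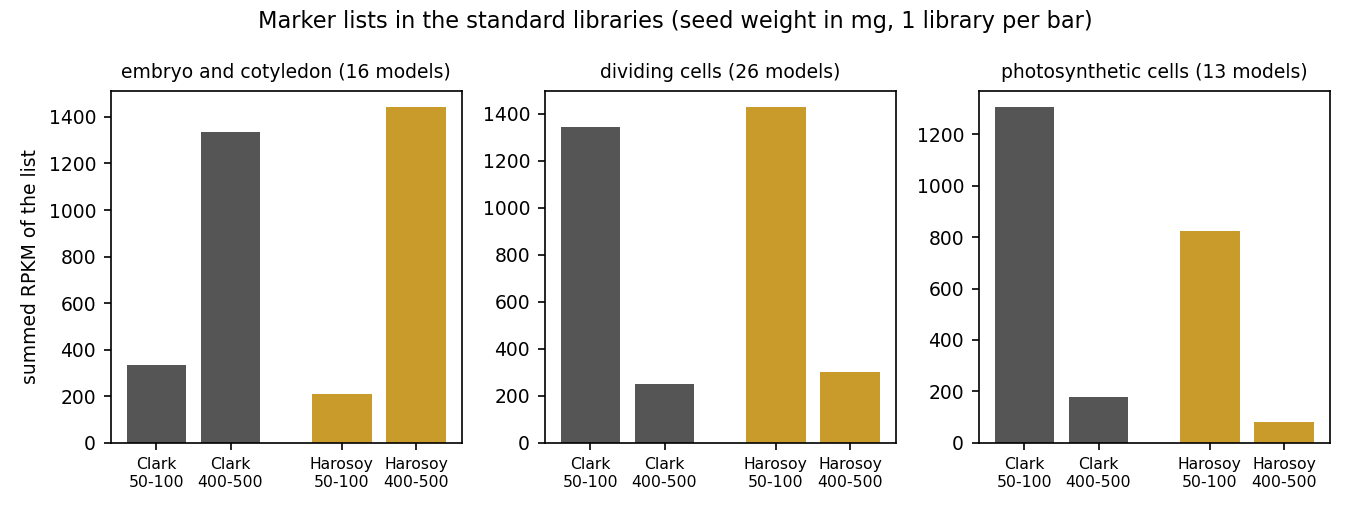
Summed RPKM of 3 marker lists in the 4 libraries, 1 library per bar, dark bars for Clark and yellow bars for Harosoy, each axis starting at 0. The embryo list rises from 335 to 1334 RPKM in Clark and from 208 to 1442 RPKM in Harosoy, and the lists of dividing and photosynthetic cells fall in both lines.

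Storage and embryo proteins had the highest median of all groups, 3.02, with 16 of 26 members higher and 4 lower. The glycinins and beta-conglycinins of this group are known as proteins that fill the cotyledons of the embryo. The group also holds dehydrin and late embryogenesis abundant (LEA) proteins, and the study reported glycinin subunit G7 among its seed coat transcripts. Glycinin subunit G7 (Glyma12g34160.1) stood at 2.70 RPKM in early CS, 2.34 RPKM in early HS, 78.9 RPKM in late CS and 80.1 RPKM in late HS (log2 ratio 4.52 ± 0.12, adjusted p = 0.0021). Sucrose-binding protein Glyma10g03400.1 went from 3.03 to 66.7 RPKM in CS and from 5.49 to 89.3 RPKM in HS. Dehydrin DHN2 (Glyma09g31740.1), of a family that protects cells as they dry, went from 7.11 to 1598 RPKM in CS and from 12.1 to 411 RPKM in HS (adjusted p = 0.0083, and 0.063 without the early CS library). LEA14 (Glyma16g03470.1), another protein of drying seeds, went from 0.677 to 463 RPKM in CS and from 0.710 to 73.9 RPKM in HS, and its call was lost without the early CS or the early HS library (adjusted p = 0.075 and 0.073). For all 4 genes both late libraries lay above both early ones.

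The members did not move as a single set. Of 4 glycinin models tested 2 rose and 2 were not called. Glycinin G1 (Glyma03g32030.1), an example chosen after its values were seen, was not called (adjusted p = 0.61). It stood at 11.1 RPKM in early CS, 8.57 RPKM in early HS, 11.4 RPKM in late CS and 9.46 RPKM in late HS. Beta-conglycinin Glyma18g53150.1 fell from 139 to 0.715 RPKM in CS and from 63.8 to 0.0842 RPKM in HS (adjusted p = 0.0021), and 3 of the 7 beta-conglycinin models tested fell while 2 rose. Beta-conglycinin alpha chain Glyma10g39150.1, by contrast, rose from 29.04 to 315 RPKM in CS and from 19.2 to 843 RPKM in HS, a call lost without the early CS or the early HS library (adjusted p = 0.059 and 0.073). The 16 marker models of embryo and cotyledon, of which 9 rose and 3 fell, summed to 335 and 208 RPKM early and to 1334 and 1442 RPKM late, with none at 0, and they share members with this group. The coats were dissected from the embryo by hand, and the part of embryo RNA in these values was not tested. The rises of the group numbered 6 without the early CS library and 8 without the early HS library.

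Most proteases fell, and their inhibitors were divided. Of 30 subtilisin, cysteine and aspartic proteases and carboxypeptidases tested, 18 fell and 2 rose, with a median of -1.39. Xylem serine proteinase 1 (Glyma04g02460.2) went from 421 to 9.40 RPKM in CS and from 659 to 6.50 RPKM in HS, and serine carboxypeptidases fell in 7 of 10 models. The cysteine endopeptidase Glyma10g35100.1 rose from 18.8 to 470 RPKM in CS and from 37.2 to 212 RPKM in HS (adjusted p = 0.017), a call lost without the early CS or the early HS library (adjusted p = 0.091 and 0.054). The falls in the group numbered 11 and 12 in these fits, and the rises 0 and 1. Without the late CS library 4 rose, and without the late HS library 6. Protease inhibitors gave 4 rises and 9 falls of 18 tested. Cysteine proteinase inhibitor 5 (Glyma08g17920.1) went from 79.7 to 0.327 RPKM in CS and from 62.7 to 0.0936 RPKM in HS, and the 5 Kunitz-type models of chromosome 8, inhibitors of serine proteases, all fell. Bowman-Birk inhibitors, small inhibitors of trypsin and chymotrypsin, rose in 4 of 6 models. The highest of them, Glyma09g28720.1, had 0.651 and 5.18 RPKM in CS and 10.4 and 699.9 RPKM in HS, early and late, and did not pass the test (adjusted p = 0.051). No inhibitor rose without either early library, and 5 fell.

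Lipid transfer proteins fell in 11 of 15 models tested and rose in 3, with a median of -3.29, and 10 or 11 fell when any 1 library was left out. The exception with the largest rise was Glyma10g39170.1, with 1.31 and 2.68 RPKM early and 340 and 191 RPKM late (log2 ratio 6.46 ± 0.40, adjusted p = 0.0036). Lipases were divided, with 8 higher and 7 lower of 19 tested. GDSL lipase Glyma09g36850.1 went from 208 to 1.13 RPKM in CS and from 433 to 1.30 RPKM in HS, and Lipase Glyma01g41450.1 from 26.8 to 133 RPKM and from 32.5 to 148 RPKM. The rises of lipases numbered 4 without either early library. Sucrose synthase 2 (Glyma15g16160.1), which cleaves the sucrose that reaches the seed, stood at 0.485 RPKM in early CS, 0.459 RPKM in early HS, 42.7 RPKM in late CS and 31.2 RPKM in late HS (log2 ratio 4.67 ± 0.16, adjusted p = 0.0021). The MtN3 family holds sugar exporters in other plants. Its model Glyma13g08190.1 went from 0.344 to 12.2 RPKM in CS and from 1.6004 to 115.02 RPKM in HS (adjusted p = 0.011), lost without the early CS or the early HS library (adjusted p = 0.23 and 0.16), while Glyma05g38340.1 stayed between 108 and 171 RPKM and was not called. In the sugar group of 9, 3 rose and 4 fell, and 1 rose and 1 fell without either early library, while 2 fell without the late HS library. Among nitrogen and amino acid transporters 4 rose and 1 fell of 9 tested, with amino acid permease AAP3 (Glyma04g38640.1) at 12.2 and 17.2 RPKM early and 40.1 and 62.5 RPKM late. No member rose without either early library, and 2 fell without the late CS library.

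Hormone-related genes moved by hormone in different proportions. Auxin-related models were the largest group, with 26 higher, 7 lower and 25 not called of 58 tested and a median of 0.98. Auxin-induced protein Glyma06g11760.1 stood at 0.366 RPKM in early CS, 0.562 RPKM in early HS, 20.05 RPKM in late CS and 31.2 RPKM in late HS. Both late libraries lay above both early ones, by 54.8-fold in CS and 55.5-fold in HS (log2 ratio 4.15 ± 0.16, adjusted p = 0.0025). Glyma17g05090.1, annotated as auxin pathway related, moved as far the other way, from 51.0 to 0.731 RPKM in CS and from 33.0 to 0.466 RPKM in HS (log2 ratio -4.72 ± 0.15, adjusted p = 0.0021). Dormancy/auxin associated protein Glyma13g31060.1 was the highest member called, with 255 and 239 RPKM early and 488 and 568 RPKM late (adjusted p = 0.042), a call lost without the early CS or the early HS library (adjusted p = 0.30 and 0.32). The group's rises numbered 7 without the early CS library and 8 without the early HS library, and its falls 4 and 5.

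Gibberellin-related models went mainly the other way, with 13 lower and 6 higher of 26 tested. Gibberellin-regulated protein Glyma13g08890.1, a small secreted peptide, stood at 247 RPKM in early CS and 167 RPKM in early HS and at 1.05 and 0.301 RPKM late (log2 ratio -6.96 ± 0.11, adjusted p = 0.0020). Its neighbour Glyma13g08880.1, with which it may share hits, fell alike, and 10 of 12 gibberellin-regulated proteins tested fell. Gibberellin 20 oxidase 1 (Glyma02g15370.1), an enzyme of gibberellin synthesis, rose from 4.27 to 65.2 RPKM in CS and from 6.36 to 115.4 RPKM in HS (adjusted p = 0.0024). Without either early library 5 members fell and 3 rose, and without the late HS library 9 members rose.

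Of the ethylene-related models tested 13 of 19 rose and 3 fell, with a median of 1.65. ACC oxidases and synthases, which make ethylene, rose in 7 of 8 models tested. ACC oxidase Glyma02g43560.1 went from 9.37 to 131 RPKM in CS and from 5.0001 to 35.0 RPKM in HS (log2 ratio 3.13 ± 0.30, adjusted p = 0.0066). Its call did not hold without the early CS or the early HS library (adjusted p = 0.13 and 0.18), and in these fits 0 and 1 members of the group rose. A further 7 models of the group were above 5 RPKM only in late CS and were not tested, for example Glyma14g05350.1 with 0.349 and 82.3 RPKM in CS and 0.157 and 0.0324 RPKM in HS, early and late. This count and this gene were chosen after their values were seen. Abscisic acid-related models gave 7 rises and 3 falls of 12, the ABA 8'-hydroxylases, which break the hormone down, being split between 2 higher and 3 lower. Without either early library 3 members fell and 1 rose.

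Transcription factor families differed in direction. NAC factors rose in 10 of 14 models tested and WRKY factors in 9 of 11, and none of either family fell. Against these 71.4% and 81.8% stand 32.9% of the annotated models and 18.3% of all models tested. NAC domain-containing protein 18 (Glyma08g47520.1) stood at 14.2 RPKM in early CS, 14.3 RPKM in early HS, 108 RPKM in late CS and 102 RPKM in late HS (log2 ratio 2.80 ± 0.12, adjusted p = 0.0027). NAC factors of plants are known for roles in senescence and wall thickening. The NAC 18 models of chromosomes 10 and 12 had the same values in all 4 libraries, and with them counted once 9 of 13 NAC models rose. Probable WRKY transcription factor 41 (Glyma08g02580.1), of a family known from defence and senescence, went from 1.77 to 28.7 RPKM in CS and from 0.596 to 18.04 RPKM in HS (adjusted p = 0.0022). Without the early CS library 5 NAC and 3 WRKY models rose, and without the early HS library 5 and 2.

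MYB and bHLH factors fell, with 9 of 13 and 8 of 13 models lower and 1 and 0 higher. MYB86 fell in 4 of 4 models, and Glyma20g22230.1 went from 37.4 to 1.86 RPKM in CS and from 35.3 to 2.13 RPKM in HS (log2 ratio -3.64 ± 0.12, adjusted p = 0.0021). Transcription factor bHLH93 (Glyma09g33590.1) went from 33.5 to 4.05 RPKM in CS and from 40.9 to 5.15 RPKM in HS. Both models of TRANSPARENT TESTA 1, a zinc finger protein that Arabidopsis needs for its brown seed coat, fell. Glyma13g01720.1 stood at 11.9 RPKM in early CS and in early HS, at 0.405 RPKM in late CS and at 0.0150 RPKM, or 1 hit, in late HS. The early and late libraries did not overlap for any of these genes, and the calls of those named held without any 1 library. The falls of the MYB group numbered 7 without either early library, and those of the bHLH group 6 and 5. Without the late HS library 3 bHLH and 2 MYB models rose.

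Flavonoid enzymes, which make the pigments of black coats and the colourless flavonoids of yellow ones, gave 9 rises and 6 falls of 24 tested. The other 13 of 37 members did not reach 1 RPKM in 2 libraries and were not tested. Leucoanthocyanidin dioxygenase (Glyma11g03010.1), which makes anthocyanidins, fell from 409 to 57.1 RPKM in CS and from 304 to 1.87 RPKM in HS, 7.17-fold and 163-fold (log2 ratio -4.78 ± 1.01, adjusted p = 0.032). This call was lost without the early CS or the early HS library (adjusted p = 0.29 and 0.25). The glycosyltransferase Glyma08g07130.1, which adds a sugar to anthocyanidins, rose from 1.44 to 36.3 RPKM in CS and from 0.689 to 10.4 RPKM in HS, also lost in both of these fits (adjusted p = 0.11 and 0.14). Of 6 chalcone synthase models tested, the entry enzyme of the pathway, 2 rose, and all stood at 18.3 to 24.8 RPKM in late CS and 9.09 to 13.24 RPKM in late HS. These near-identical genes share hits. No member rose without either early library, and 14 rose without the late CS library. Of the 13 untested members 8 were above 5 RPKM only in late CS. Among them was flavonoid 3',5'-hydroxylase Glyma13g04210.1 at 0.519 and 28.4 RPKM in CS and 0.266 and 0.0256 RPKM in HS, a choice made after the values were seen. The TT10 laccase model Glyma16g27480.1, of an enzyme that browns the Arabidopsis coat, had 370 and 113 RPKM in CS and 23.4 and 17.2 RPKM in HS, and was not called (adjusted p = 0.083). The other TT10 model, Glyma02g08380.1, fell from 31.9 to 9.50 RPKM in CS and from 8.87 to 5.22 RPKM in HS (adjusted p = 0.040), a call lost when any 1 of the 4 libraries was left out (adjusted p of 0.090 to 0.73).

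Heat shock proteins fell in 16 of 23 models tested, with 1 rise and a median of -1.07. Hsp70 model Glyma05g36620.1, a chaperone that helps proteins fold, went from 353 to 75.8 RPKM in CS and from 142 to 73.2 RPKM in HS (log2 ratio -1.58 ± 0.36, adjusted p = 0.037). The early CS library was high, the early HS library lower, and the late libraries nearly coincided. The call was lost without the early CS, the late CS or the late HS library (adjusted p = 0.16, 0.066 and 0.075). The falls of the group numbered 1 without the early CS library, 8 without the early HS library, 9 without the late CS library and 7 without the late HS library. Senescence-associated models gave 3 rises and 4 falls of 22. A run of 10 of them on chromosome 13 had log2 ratios of -0.23 to 0.09 in CS and of 1.36 to 1.99 in HS. Their levels summed to 902 and 916 RPKM in CS and to 1087 and 3836 RPKM in HS, early and late. None of the 10 was called. As neighbours that moved alike they may share hits, so they may not be 10 separate signals, which was not tested. Without the late CS library 13 of the group rose, and without the late HS library 6, against 0 without either early library.

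The intermediate stage of 100–200 mg was read on another platform, the GAII, with shorter reads, so stage and platform cannot be told apart and its values are given as a description with no test. Of the 2366 models higher late in both lines, 85.5% had an intermediate value at 100–200 mg in CS and 65.8% in HS. In HS 28.1% of them were above both other stages, against 4.44% in CS. On a scale from 0 at the early to 1 at the late log2 level, the median position of these models at 100–200 mg was 0.36 in CS and 0.67 in HS. For the 2917 models lower late the positions were 0.38 and 0.50. PRP2 had 809 RPKM in CS and 3438 RPKM in HS at this stage, which in HS was near its late level. Expansin-A1 was at 270 RPKM in CS, close to its early level, and at 2.502 RPKM in HS. The strictosidine synthase protein Glyma17g09110.1 was likewise at 95.8 RPKM in CS and 2.33 RPKM in HS, between 151 and 368 RPKM early and 0.632 and 0.414 RPKM late. Each line gives 1 library, and the difference between the lines was not tested.

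**Figure D5:**
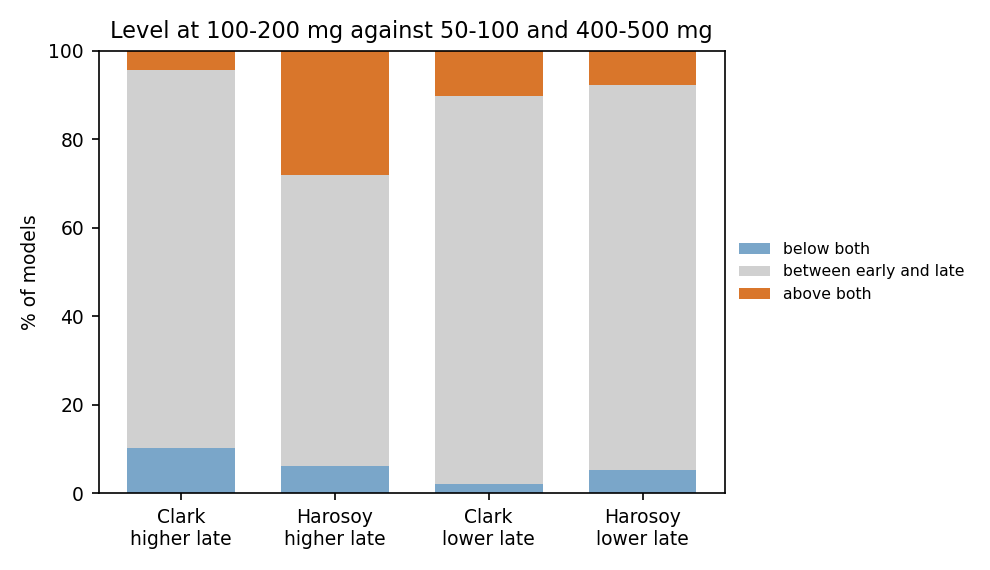
Share in percent of the models higher late (2366) and lower late (2917) in both lines whose RPKM at 100–200 mg lay below, between or above the early and late values, per line. In Harosoy 28.1% of the models higher late lie above both stages at 100–200 mg, against 4.44% in Clark.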

How the data were processed

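RNA of seed coats was sequenced on the Illumina HiSeq platform (50–100 mg and 400–500 mg seeds) or GAII (100–200 mg), and the authors aligned reads to 78773 Glyma gene models with Bowtie, allowing up to 3 mismatches and up to 25 alignments of a read. The authors deposited RPKM values (hits per kilobase of model, scaled to the library total), in tables of 1 stage of 1 line, each with a standard and a defective column. Only the standard columns of Clark and Harosoy entered the comparison, and no column was left unmapped.

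RPKM values were put on a log2(RPKM + 1) scale, so that the fold of low models is understated there. This log2 value was computed here from the deposited RPKM. Models that reached 1 RPKM in 2 or more of the 4 libraries were fitted with limma 3.58.1 in R 4.3.3 (stage, with the line as replicate block, 1 residual degree of freedom), with Benjamini-Hochberg adjusted p under 0.05 as the threshold. The block is used because early and late coats come from the same line. The variance of each model was moderated toward the trend over all models tested, which gave a median of 3.84 total degrees of freedom. An exact permutation test of 2 against 2 libraries cannot go below p = 0.33 and was not used. Fits without a library have no block, since 3 libraries with it leave no residual degrees of freedom. Folds quoted for a model are ratios of RPKM, with a level below that of 3 hits raised to it. The hits behind the RPKM values were recovered as whole numbers from the steps of these values (tolerance 0.02). These hits served for depth, for that floor and for the factors of the TMM alternative. Tables were handled with Python 3.11.15, pandas 2.3.3 and numpy 2.4.6, and the fit was tested on simulated data.

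Models and groups were chosen with earlier results of these data known. Named models are the 10 loci per direction with the largest smaller change of both lines (with at least 5 RPKM in a library), the same among annotated models, the 3 highest members and the largest rise and fall of each group, the 5 highest models per stage, 3 loci per direction with the largest opposite changes, and models that the study's text and short tables name. Exceptions are marked. Annotations were taken from the study's lists of models that differ between isolines. Alternatives were other pseudocounts, low-value filters, TMM and quantile scaling, no block, 8 libraries with the defective lines, each library left out, and other description thresholds.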

Additional observations from a re-analysis of the deposited data

Results flagged for a closer look

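Of the models whose lines moved in opposite directions, 11 are listed here, 9 that passed 2-fold and 5 RPKM in each line, and 2 further named models that moved by nearly as much. With 1 library per line and stage none of these differences was tested. The values are the Clark minus the Harosoy log2 ratio of late to early RPKM + 1. Auxin down-regulated ADR12 (Glyma10g35870.1) had 848 and 449 RPKM in CS and 33.0 and 135 RPKM in HS, early and late, a difference of -2.91. Its neighbour Glyma10g35840.1, annotated as unknown, had 597 and 319 RPKM in CS and 23.6 and 94.9 RPKM in HS, a difference of -2.87. The 2 neighbours had similar numbers of hits in each library and may share them. Both were far higher in CS than in HS at the early stage.

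The other models rose in CS and fell in HS. The oligopeptide transporter OPT1 (Glyma02g47140.1) went from 0.420 to 20.2 RPKM in CS and from 13.15 to 4.89 RPKM in HS, a difference of 5.17. A Kunitz-type inhibitor (Glyma16g33790.1) went from 28.9 to 94.5 RPKM and from 22.6 to 10.19 RPKM (2.75). A hybrid histidine kinase (Glyma03g37760.1) went from 2.20 to 6.53 RPKM and from 10.4 to 3.59 RPKM (2.55), and an alpha-galactosidase (Glyma16g33510.1), which releases galactose from seed sugars, from 17.6 to 45.0 RPKM and from 11.9 to 5.25 RPKM (2.35). An aldehyde dehydrogenase (Glyma02g03870.1) differed by 2.15. The models Glyma10g33650.1 (3.98), Glyma17g13720.1 (4.24), Glyma05g08400.1 (2.77) and Glyma04g03330.1 (2.81) had no annotation or were annotated as unknown.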

How the results depend on the processing

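The 16659 calls numbered 3380 to 14270 with 1 library left out, the calls higher late 524 to 6506 and the calls lower late 2856 to 8162. The fits without 1 library are unpaired. With all 4 libraries but without the replicate block 5179 models were higher and 7012 lower (12191 in all). With the defective lines added, 8 libraries gave 6286 and 7993. With 5 RPKM or more in 2 libraries required, 5468 models were lower late, from fewer models tested. Models past the description thresholds in both lines numbered 3680 higher and 5878 lower at 1 RPKM, 1781 lower at 10 RPKM and 729 higher and 1533 lower at 4-fold, and 3281 to 4068 were higher when 1 line alone was used. Of 161 named models 135 were called, of which 84 were called without the early CS library, 87 without the early HS library, 124 without the block and 125 with 8 libraries. The sign reversed for Glyma10g33650.1 without the late HS library, with values of -2.56 to 1.60 over the fits without 1 library, and for the Hsp90 model Glyma09g24410.1 without the early CS library, with -1.84 to 0.20, and the cause was not tested. No median of the 30 groups changed sign with 1 model per locus, TMM or quantile scaling or a pseudocount of 0.1, the settings run for medians. With a pseudocount of 0.1, however, 13 medians moved by at least the standard deviation between the medians of the 2 lines. With quantile scaling 2 did, and with 1 model per locus 2. Hits per model limit only low levels, and the other limits are 1 library per line and stage, hits shared between close models, annotations for 2063 models only, and the lines as the sole repeats.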

Other observations

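Loci with the largest changes lay near each other on the chromosomes more often than loci with the smallest change, though most had no such neighbour. Of the 100 loci with the largest rise in both lines, 21 had another of the same set within 10 places in the order of the models, and of the 100 with the largest fall 30 did, against 2 of the 100 loci with the smallest change. Neighbours can be tandem copies that share hits, and their part in these counts was not tested.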
